A study of Mus musculus with 9 samples.

Results

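The subcortical maternal complex is a group of proteins made by the growing oocyte, and 6 of its genes were examined here: Nlrp5, Ooep, Tle6, Khdc3, Padi6 and Zbed3. They were taken as a named list, with every probe set that the platform annotation gives to each gene alone, and all 6 were measured. They make up 6 of the 18193 genes and 9 of the 45037 probe sets tested. Zbed3 has 4 probe sets and each of the other genes has 1.

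Messenger RNA bound to polysomes, the ribosome-loaded fraction that is being translated, was measured in mouse oocytes on 9 Affymetrix mouse whole-genome arrays, 3 at each stage. Germinal vesicle (GV) oocytes, in prophase arrest, were collected at 0 h of hCG, metaphase I (MI) oocytes at 4 h and metaphase II (MII) oocytes at 14 h. All donors had received PMSG, a gonadotropin that stimulates follicle growth, 48 h before hCG, the ovulatory gonadotropin, so no stage is free of hormone treatment. The sources used here give no strain, age or number of oocytes per array. The description field of the MI samples reads pGVB, while their titles and stage field say MI. The labels call the replicates biological and the design names 3 independent sets of samples, without saying whether a set means separate animals or whether replicate numbers mark the sets. Each p-value reflects the spread between these arrays, which may in part be technical.

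In mouse oocytes the proteins of these genes gather beneath the plasma membrane and associate with the cytoplasmic lattices, fibres that fill the cytoplasm of the mature egg and store maternal proteins. NLRP5 (also called MATER), OOEP (FLOPED) and TLE6 form the core of the complex, KHDC3 (FILIA) binds to it, PADI6 is required for the lattices to form, and ZBED3 is a later-described component. Embryos of mothers that lack Nlrp5, Ooep, Tle6 or Padi6 stop at early cleavage, which places the genes among the maternal-effect genes. The full-grown oocyte no longer transcribes, so its mRNAs are those made during growth.

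The bases before the start of transcription are shown for Nlrp5 and Ooep, 2 of the 5 genes that fell, and for Zbed3, which did not pass the test in any comparison. All 6 genes matched the RefSeq promoter table of build GRCm38.p6, and where a gene had several starts the outermost was used. Each stretch holds 250 bases, 5′ to 3′ on the gene's strand, and ends at the base before the start. Capitals mark TAATTG or TAATTA on either strand, the core that the oocyte homeobox factor NOBOX binds. The stretch of Nlrp5 is chr7:23385639-23385888 on the plus strand, that of Ooep chr9:78378589-78378838 on the minus strand and that of Zbed3 chr13:95323355-95323604 on the plus strand.
Nlrp5: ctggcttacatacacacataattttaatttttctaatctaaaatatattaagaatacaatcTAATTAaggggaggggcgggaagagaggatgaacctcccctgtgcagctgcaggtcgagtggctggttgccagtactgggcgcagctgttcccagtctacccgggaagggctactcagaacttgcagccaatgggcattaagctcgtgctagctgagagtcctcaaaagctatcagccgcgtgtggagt
Ooep: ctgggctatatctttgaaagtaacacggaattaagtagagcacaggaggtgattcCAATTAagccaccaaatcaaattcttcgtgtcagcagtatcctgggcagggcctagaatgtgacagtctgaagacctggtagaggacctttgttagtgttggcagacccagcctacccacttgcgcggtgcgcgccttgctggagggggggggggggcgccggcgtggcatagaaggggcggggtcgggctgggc
Zbed3: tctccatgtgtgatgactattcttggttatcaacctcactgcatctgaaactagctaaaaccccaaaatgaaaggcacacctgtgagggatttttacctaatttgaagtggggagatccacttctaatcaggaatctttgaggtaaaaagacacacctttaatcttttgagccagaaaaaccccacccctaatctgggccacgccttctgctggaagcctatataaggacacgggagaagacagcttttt

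In these windows 2 of the 6 genes, Nlrp5 and Ooep, held 1 NOBOX-type match each, at 189 and 195 bases before the start. Tle6, Khdc3 and Padi6, which also fell and are not shown, held none, and neither did Zbed3. The same letters were found in 11.5% of 27025 mouse promoter windows of that length. CANNTG, the E-box that FIGLA and other helix-loop-helix factors bind, searched on both strands and apart from the other motif, was present in all 6 windows and in 66.1% of all windows. A match is a run of letters and not a measured site, and polysome arrays say nothing about promoter use.

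The arrays were checked before the members were compared. Array medians lay between 12.4 and 13.2, far below the brightest probe set of each member at every stage, of which Khdc3 at MII was the lowest. Oocyte markers were bright, 11 of 11 at or above the median gene, and their summed intensity was 47191 to 49448 in GV oocytes, 41352 to 46310 in MI oocytes and 26324 to 32898 in MII oocytes. Of these markers 5 fell and 3 rose between MII and GV, where 8.8% of all genes fell and 5.46% rose (limma). Those that fell were Zp1 (log2 change -1.82), Zp3 (-2.22), Zp2 (-2.27), Nobox (-2.97) and Figla (-5.00). Those that rose were Oosp1 (1.11), Dazl (1.14) and Mos (1.47). Granulosa, cumulus and theca markers, 16 of 18 measured and 4 of them at or above the median gene, summed to 1005 to 1120 in GV oocytes, 1059 to 1343 in MI oocytes and 738 to 1106 in MII oocytes. No marker was at 0, and the 16 differed widely. Cyp11a1 reached 782 on its highest array, Nr5a2 725, Star 403, Inhba 302, Amhr2 173, Ptgs2 168, and Fshr, Amh and Cyp17a1 at most 14.0, 24.2 and 14.6. Tnfaip6, a cumulus matrix gene, was the 1 marker of this list that passed, at 9.65 ± 12.2 in MII oocytes and 66.4 ± 17.9 in MI oocytes (SD, n = 3 each, adjusted p = 0.0176 by limma). Blood, immune and endothelial markers, 7 of 8 measured with 1 at or above the median gene, summed to 170 to 353 in GV oocytes, 119 to 615 in MI oocytes and 618 to 886 in MII oocytes. Most of that sum at MII was Pecam1, an adhesion protein, at 661 ± 112 in MII oocytes and 190 ± 104 in GV oocytes (adjusted p = 0.153 by limma), and the highest of the other 6, Cd68, averaged 19.0 in MII oocytes. The part of these sums in the members' values was not tested. The array MI 3 stood apart, with a median granulosa marker level of 6.04 on the log2 scale against 4.77 to 5.36 on the other arrays. Without MI 3, 4 members passed for MII against MI and 5 for MII against GV, the same numbers as with it.

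Polysome-bound mRNA of 5 of the 6 genes was lower at MII than at GV, and Zbed3 was the exception. In these bulk samples less mRNA per oocyte and a smaller loaded share of it cannot be told apart. The number of oocytes per array is not given, and its part was not tested. The fall was 2.35-fold for Nlrp5, 2.61-fold for Ooep, 7-fold for Padi6, 7.19-fold for Tle6 and 17.1-fold for Khdc3, all on the log2(intensity + 16) scale, which understates changes near background. A gene passed where the adjusted p of limma, Benjamini-Hochberg over all genes, was under 0.05. In this comparison 5 of 6 members fell and none rose, where 14.3% of all genes passed, 8.8% falling and 5.46% rising. The members were chosen with earlier results of these data known, so the shares over all genes are no test of the list. Shares over all genes, here and below, include dim genes, while all 6 members lay at or above the median gene. The share among genes of like signal was not computed. The median log2 change of the 6 was -2.09, against -0.02 over all genes. Between MII and MI, 4 of the 6 fell, with a median of -1.84, where 9.32% of all genes passed, 6.78% falling and 2.54% rising. The moderated F test over the 3 stages called the same 5 genes that fell between GV and MII, with adjusted p from 0.00206 (Khdc3) to 0.0434 (Nlrp5), while Zbed3 had 0.38. The Nlrp5 call by this test was lost in 8 of the 9 fits without 1 array (adjusted p from 0.0586 to 0.110) and under 5 other settings, namely pseudocount 1 (0.219), no dim genes (0.0845), quantile normalization (0.102), an equal 95th percentile (0.108) and the replicate block (0.082). Ooep lost its F call with pseudocount 1 (adjusted p = 0.0761). By that test 11.6% of all genes differed among stages.

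**Figure D1:**
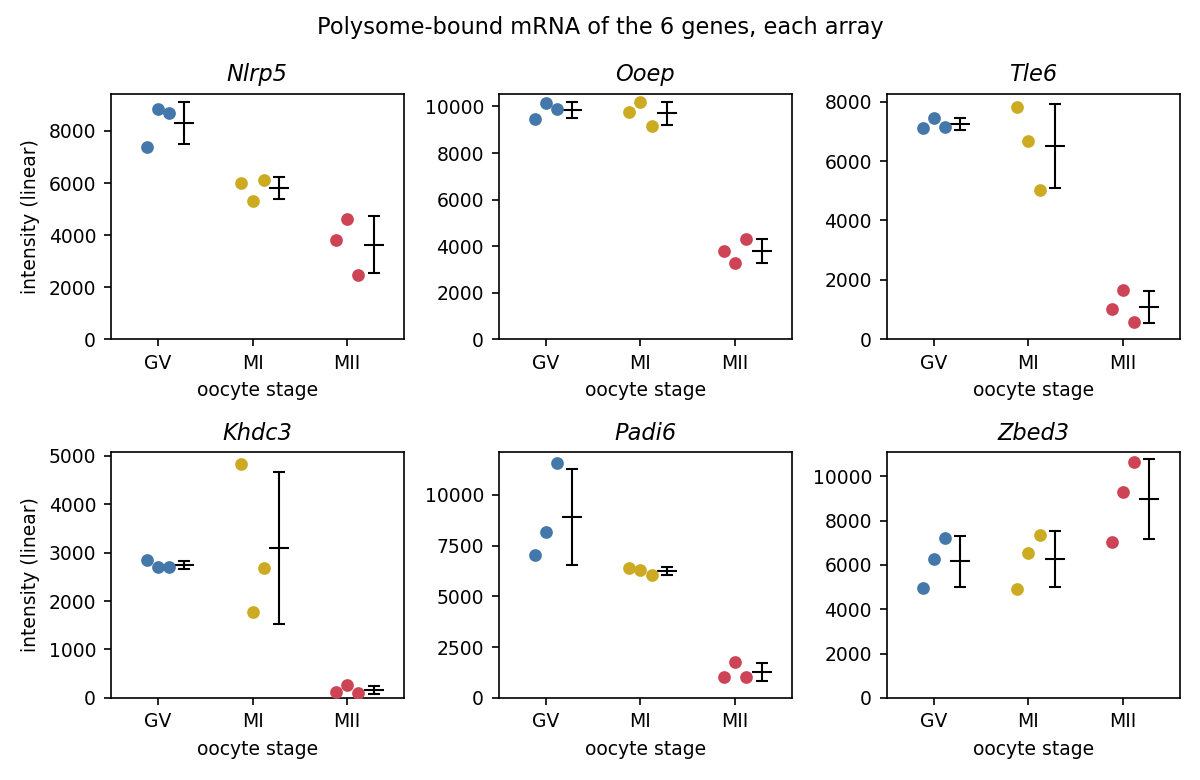
Intensity on a linear scale of the brightest probe set of each gene in every array, by stage. Points are arrays and the bar beside them is the mean with its SD (n = 3). The 3 MII arrays lie below all GV and MI arrays for Nlrp5, Ooep, Tle6, Khdc3 and Padi6, and overlap them for Zbed3.

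The core of the complex is encoded by Nlrp5, Ooep and Tle6. Nlrp5, a leucine-rich repeat protein of the NLR family, had intensities of 7396, 8857 and 8676 in GV oocytes, 5990, 5322 and 6105 in MI oocytes and 3819, 4637 and 2465 in MII oocytes. All 3 stages were separate, with every MI array below every GV array and every MII array below both. The mean was 3640 ± 1097 in MII oocytes and 8310 ± 797 in GV oocytes (SD, n = 3 each), a log2 change of -1.23 (SE 0.26, adjusted p = 0.0174 by limma). Neither single step passed, with log2 changes of -0.51 for MI against GV (adjusted p = 0.783) and -0.72 for MII against MI (adjusted p = 0.149). Nlrp5 was thus called over the whole span alone, and that call was lost without GV 2 (adjusted p = 0.0568) or GV 3 (adjusted p = 0.055) and with pseudocount 1 (adjusted p = 0.0993). The RefSeq gene table also lists a transcribed pseudogene, Nlrp5-ps, and its part in the signal was not tested.

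Ooep, a small protein with an atypical KH domain, had 9461, 10146 and 9900 in GV oocytes, 9775, 10172 and 9171 in MI oocytes and 3794, 3268 and 4293 in MII oocytes. GV and MI arrays overlapped, and the MII arrays all lay below them. MII averaged 3785 ± 512 and MI 9706 ± 504 (SD, n = 3 each), a log2 change of -1.36 (SE 0.19, adjusted p = 0.00519 by limma). Against GV oocytes, at 9835 ± 347, the change was -1.38 (adjusted p = 0.00298). With pseudocount 1, the only alternative that ended these calls, the adjusted p was 0.0729 against MI and 0.0507 against GV.

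Tle6, a relative of the Groucho corepressors, had 7125, 7462 and 7154 in GV oocytes, 7812, 6672 and 5025 in MI oocytes and 1006, 1649 and 588 in MII oocytes. Its GV arrays lay close together, while the MI arrays spread on both sides of them and the MII arrays stood well below. The mean in MII oocytes was 1081 ± 534, against 6503 ± 1401 in MI oocytes (SD, n = 3 each), and the log2 change was -2.67 (SE 0.36, adjusted p = 0.00519 by limma). Set against GV oocytes, at 7247 ± 187, the log2 change was -2.85 (adjusted p = 0.00256).

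Khdc3, a KH-domain protein that mouse embryos need for correct chromosome segregation, had 2853, 2700 and 2702 in GV oocytes, 4844, 1779 and 2683 in MI oocytes and 125, 256 and 94.6 in MII oocytes. The GV arrays lay close together, the MI arrays spread on both sides of them, and the MII arrays lay far below all others. Relative to the mean the SD was 54.0% in MII oocytes and 50.8% in MI oocytes. MII oocytes averaged 159 ± 85.6, against 3102 ± 1575 in MI oocytes (SD, n = 3 each), which is -4.15 on the log2 scale (SE 0.43, adjusted p = 0.00209 by limma). MII oocytes held 5.76% of the mean intensity of GV oocytes, at 2752 ± 87.5, and the log2 change was -4.09 (adjusted p = 0.00145).

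Padi6, the oocyte member of the peptidylarginine deiminases and a main constituent of the lattices, had 7021, 8155 and 11577 in GV oocytes, 6396, 6299 and 6034 in MI oocytes and 1042, 1773 and 1011 in MII oocytes. All MI arrays lay below all GV arrays, and all MII arrays below the MI arrays. MII oocytes averaged 1275 ± 431 and MI oocytes 6243 ± 187 (SD, n = 3 each), a log2 change of -2.33 (SE 0.29, adjusted p = 0.00359 by limma). Against GV oocytes, at 8917 ± 2372, it was -2.81 (adjusted p = 0.00134).

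Zbed3, a BED zinc-finger protein that binds Axin in other cells, had 4978, 6254 and 7237 in GV oocytes, 4894, 6542 and 7358 in MI oocytes and 7044, 9288 and 10632 in MII oocytes at its brightest probe set. Values of MII oocytes reached higher than those of the other stages but overlapped both. In each stage the intensity rose with the replicate number, and at each replicate number the MII array was the highest of the stages. The sources do not say whether a number marks a shared set. The mean was 8988 ± 1813 in MII oocytes and 6157 ± 1132 in GV oocytes (SD, n = 3 each), a log2 change of 0.54 with a 95% interval from -0.07 to 1.15 (adjusted p = 0.252 by limma). Against MI oocytes, at 6265 ± 1255, the change was 0.52 (interval from -0.09 to 1.13, adjusted p = 0.316). Without 1 array at a time its change between MII and GV ran between 0.40 and 0.71 and passed in 0 of 9 fits.

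The other probe sets of Zbed3 were read from a fit over all 45037 probe sets, where 8.98% passed for MII against GV and 5.42% for MII against MI. None of the 4 passed in either comparison. The second brightest, whose name ends in _s_at, had 4410, 4805 and 4463 in GV oocytes, 4566, 5162 and 5480 in MI oocytes and 6267, 6748 and 6738 in MII oocytes. Its MII arrays lay above all others. Its log2 change was 0.53 for MII against GV (SE 0.14, adjusted p = 0.0569 by limma, unadjusted p = 0.00545) and 0.38 for MII against MI (adjusted p = 0.206). The probe set that ends in _x_at had means of 5243 ± 477 in MII oocytes and 4583 ± 742 in GV oocytes (SD, n = 3 each), a log2 change of 0.20 (interval from -0.23 to 0.63). The dimmest lay between 17.2 and 78.6 on all arrays, near background. All 4 changes between MII and GV were above 0, from 0.20 to 0.58, but the probe sets read the same arrays and are not separate evidence. On Affymetrix arrays the endings _s_at and _x_at mark probes that can bind more than 1 transcript.

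**Figure D2:**
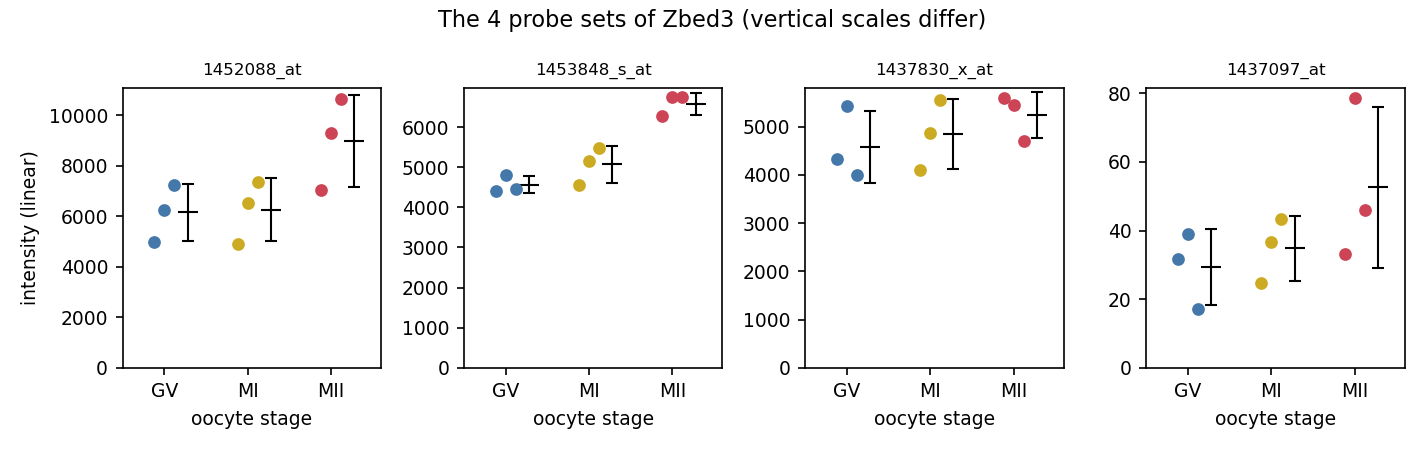
Linear intensity of the 4 Zbed3 probe sets in every array, by stage, with the mean and SD (n = 3) beside the points. The vertical scales differ, running left to right by mean intensity. The dimmest probe set stays at or below 78.6 while the lowest value of the others is 4007.

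**Figure D3:**
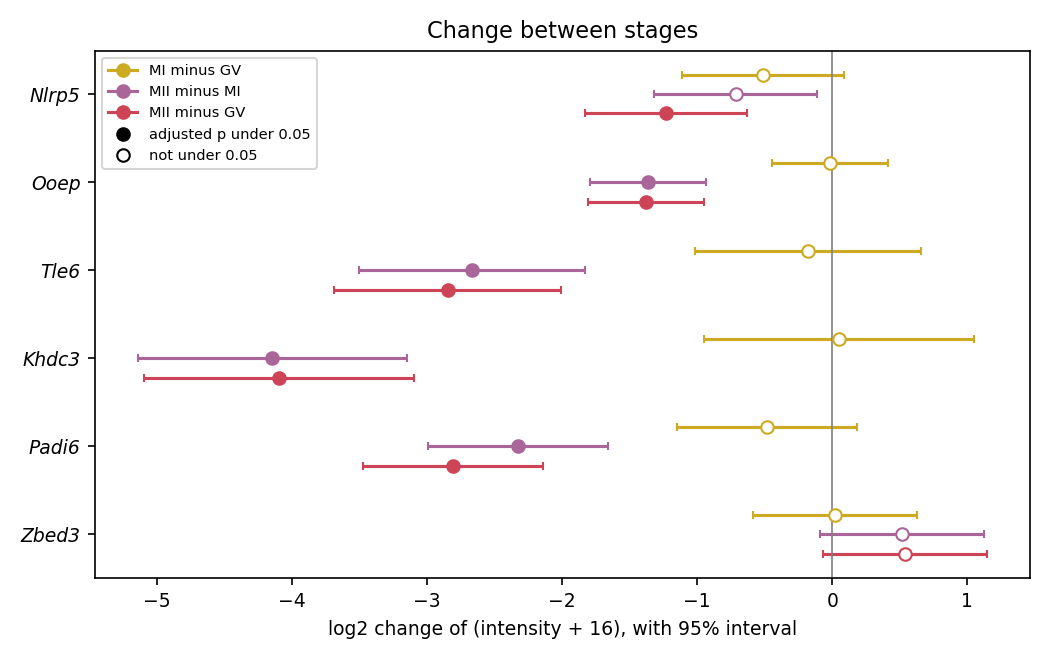
Log2 change of (intensity + 16) of each gene in 3 comparisons, with 95% intervals of the limma fit. Filled points passed at an adjusted p under 0.05. No gene passed for MI minus GV, 4 passed for MII minus MI and 5 for MII minus GV, all below 0.

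Between MI and GV no member passed limma's test, none had an unadjusted p under 0.05 and 0% of all genes passed, although 1308 of 18193 genes had an unadjusted p under 0.05. Log2 changes of the 6 lay between -0.51 (Nlrp5) and 0.05 (Khdc3), with a median of -0.10. Nlrp5 and Padi6 were the 2 members whose MI arrays all lay below the GV arrays, and arrays did not overlap in either direction for 12.4% of all genes. Between MII and MI the arrays did not overlap for 5 of the 6 members, the exception being Zbed3, against 26.9% of all genes, and between MII and GV for the same 5, against 31.4%. The test of whether the later step differed from the earlier one called no member and 0.209% of all genes, while 4 of the 6 had an unadjusted p under 0.05. Khdc3 came nearest, with a difference of -4.20 on the log2 scale (adjusted p = 0.0703), followed by Ooep (-1.34, adjusted p = 0.149), Tle6 (-2.49, adjusted p = 0.163) and Padi6 (-1.84, adjusted p = 0.193). For Nlrp5 the difference of the steps was -0.20 (adjusted p = 0.922), and for Zbed3 it was 0.50 (adjusted p = 0.787).

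Ratios between 2 members within an array are not moved by a single scaling factor per array. All 15 pairs were compared in each of 3 comparisons, on log2 ratios of linear intensities, by an exact two-sided permutation test of 3 against 3 arrays, whose smallest possible p is 0.1 and which therefore cannot reach 0.05. For MII against GV, 13 of 15 pairs had ratios that did not overlap between the stages (exact p = 0.1, adjusted p = 0.115 for each), and these included all 5 pairs with Zbed3. Over all pairs of the 18193 genes the share was 29.7% for MII against GV, 25.1% for MII against MI and 11.3% for MI against GV. Relative to Zbed3 the log2 ratio changed by -1.78 for Nlrp5, -1.93 for Ooep, -3.37 for Padi6, -3.41 for Tle6 and -4.79 for Khdc3. Between members that fell, the log2 ratio of Tle6 to Khdc3 lay between 2.64 and 3.01 in MII oocytes and between 1.32 and 1.47 in GV oocytes.

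The 2 pairs that overlapped were Nlrp5 with Ooep and Tle6 with Padi6. Their log2 ratios differed between MII and GV by 0.15 (exact p = 0.7) and -0.05 (exact p = 0.7), which is less than the pooled SD of 0.47 and 0.39 between arrays. The mean log2 change was smaller in size for Nlrp5 and Ooep than for Tle6 and Padi6. It was larger in size for Khdc3 than for the other 4. Ratios did not overlap for each pair across these levels, a state found in 29.7% of all gene pairs. The exact test cannot reach 0.05, so this order describes the arrays and is not a tested result. In the comparison of MI with GV, 2 of 15 pairs did not overlap, Nlrp5 over Ooep (-0.50) and Ooep over Padi6 (0.46), both with exact p = 0.1 and adjusted p = 0.6.

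**Figure D4:**
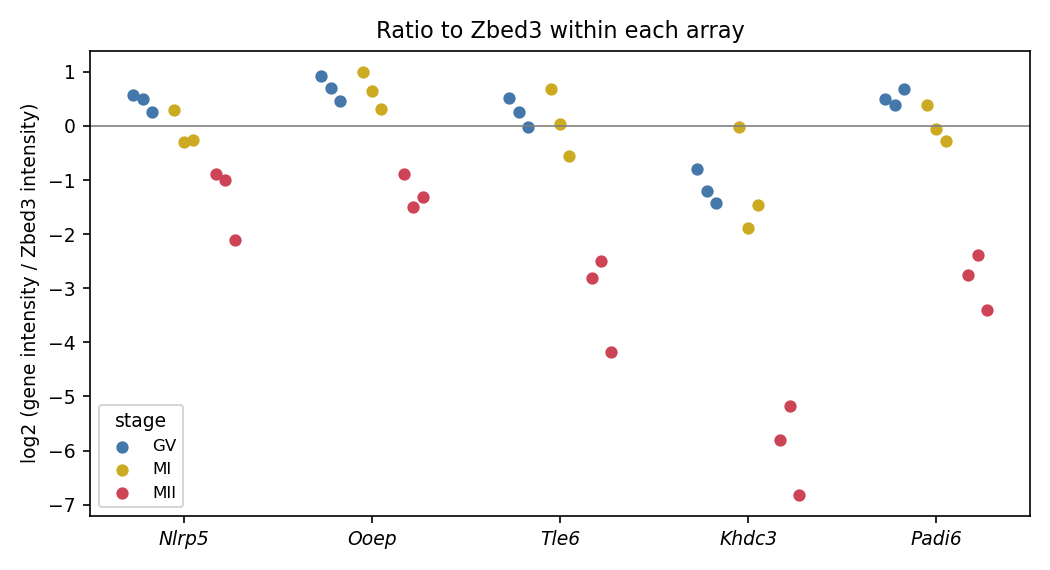
Log2 of each gene's linear intensity over that of Zbed3 in the same array, by stage, 3 arrays each. All 5 genes have their 3 MII arrays below their GV and MI arrays, with Khdc3 between -6.81 and -5.18 at MII.

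Other genes whose proteins bind the complex or lie in the lattices were taken as a list of 5, of which 4 were measured. None passed between MI and GV, where 0% of all genes passed. Between MII and MI 2 fell, against 6.78% of all genes, and between MII and GV 2 fell, against 8.8%, with a median log2 change of -0.97 in the last. Cfl1, the actin-severing protein cofilin, averaged 908 ± 323 in MII oocytes and 6322 ± 60.5 in GV oocytes (SD, n = 3 each; log2 change -2.85, adjusted p = 0.00178 by limma). Its other probe set fell by 1.92 on the log2 scale in the fit over all probe sets (adjusted p = 0.0101). Nlrp14, an oocyte NLR protein, averaged 3133 ± 461 in MII oocytes and 7739 ± 1138 in GV oocytes (log2 change -1.30, adjusted p = 0.00596). Uhrf1, a reader of methylated DNA that in oocytes is largely cytoplasmic, had a log2 change of -0.65 (adjusted p = 0.0737). Nlrp4f, an NLR protein found in the complex, averaged 4059 ± 374 in MII oocytes and 4255 ± 168 in GV oocytes (log2 change -0.07, adjusted p = 0.884).

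Among 23 measured maternal-effect genes outside the complex, 4 fell, 4 rose and 15 did not pass between MII and GV, with a median log2 change of -0.46. Over all genes 8.8% fell and 5.46% rose. Those that fell were Ube2a (-1.83), a ubiquitin-conjugating enzyme, Pms2 (-1.72), a mismatch repair protein, Dnmt1 (-1.23), the maintenance DNA methyltransferase, and Zar1 (-1.13), an mRNA-storing protein of oocytes. Those that rose were Cdh1 (3.17), the epithelial cadherin of the early embryo, Btg4 (1.43), an adaptor of mRNA deadenylation, Ctcf (1.33), a chromatin insulator protein, and Tet3 (1.31), a dioxygenase that oxidises methylated cytosine. The 4 falls passed in each of the 9 fits that left out 1 array, as did the rises of Cdh1 and Btg4, whereas Tet3 passed in 5 of them (adjusted p from 0.0179 to 0.0539) and Ctcf in 2 (adjusted p from 0.007 to 0.124). Averaged over its 3 probe sets Pms2 had -0.08 (adjusted p = 0.916), and its other probe sets had 0.77 (adjusted p = 0.0448) and 0.70 (adjusted p = 0.617) in the fit over all probe sets. The mean over both probe sets of Ube2a had -1.55 (adjusted p = 0.0622). With pseudocount 1 the calls of Nlrp14, Zar1, Dnmt1, Ctcf, Tet3 and Btg4 were lost, at adjusted p between 0.057 (Btg4) and 0.112 (Ctcf).

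Genes related to the members by sequence family were read as well. Of the KH-domain relatives of Ooep and Khdc3, 3 were measured. Dppa5a, a marker of pluripotent cells, averaged 483 ± 98.2 in MII oocytes and 4737 ± 863 in GV oocytes (SD, n = 3 each; log2 change -3.26, adjusted p = 0.00199 by limma). Khdc1b averaged 4702 ± 747 in MII oocytes and 2270 ± 881 in GV oocytes (log2 change 1.10, adjusted p = 0.0479), a call that held in 1 of the 9 fits without 1 array, while its other probe set had 1.16 (adjusted p = 0.00324). Khdc1a had a log2 change of -0.03 (adjusted p = 0.966). Padi1, Padi2, Padi3 and Padi4, the other peptidylarginine deiminases, lay at or below 83.2 on every array and none of the 4 lay at or above the median gene, at an intensity of 37.5. None of the 5 measured Tle relatives and none of the 3 Zbed relatives passed in any comparison. The smallest adjusted p for MII against GV in these families was 0.19 (Padi4), 0.319 (Tle2) and 0.579 (Zbed4).

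**Figure D5:**
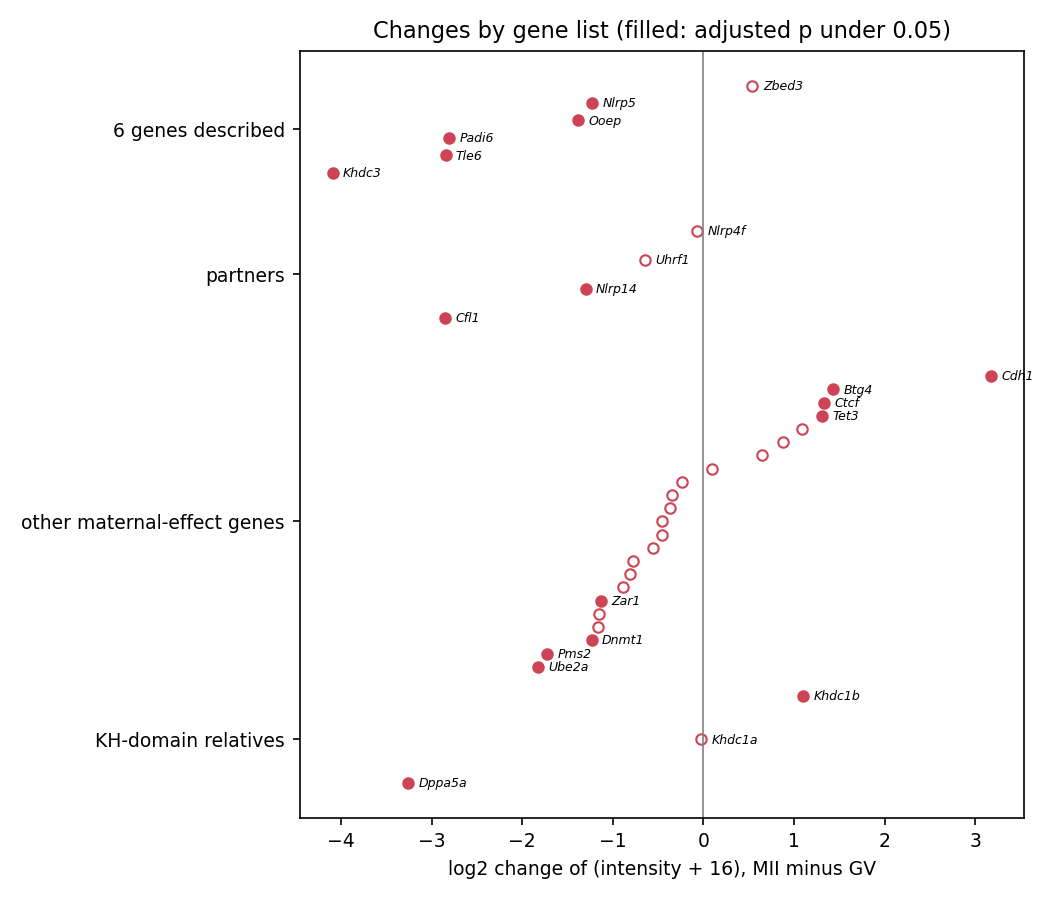
Log2 change of (intensity + 16) between MII and GV for the 6 genes and for 3 lists, 1 point per gene, at its brightest probe set. Filled points passed at an adjusted p under 0.05. The 6 genes run from -4.09 (Khdc3) to 0.54 (Zbed3), the partners from -2.85 to -0.07.

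Across the 9 arrays the 5 genes that fell had Pearson's r between 0.77 and 0.98 over their 10 pairs and Spearman's rho between 0.53 and 0.93, which the fall at MII enters. After the stage means were taken off, Ooep had r of -0.82 with Nlrp5, -0.72 with Tle6, -0.69 with Khdc3 and -0.55 with Padi6. The 6 pairs among those 4 had r between 0.51 and 0.82. The SD of Ooep on the log2 scale was 0.196 at MII, 0.0753 at MI and 0.0511 at GV, so its negative r drew largely on the MII arrays. In GV oocytes Ooep, Nlrp5 and Tle6 were all highest on GV 2 and lowest on GV 1, while Khdc3 was highest on GV 1. With Zbed3 r across the arrays lay between -0.77 and -0.65, and between -0.40 and 0.35 without the stage means. These coefficients describe arrays that fall into stages and share their library and scaling, so they carry no test. Over 8758 other named genes at or above the median signal, the 3 with the profile most like each member were as follows. For Nlrp5 they were Ift46, a ciliary transport protein (r = 0.988), Ergic3, a protein that cycles between endoplasmic reticulum and Golgi (0.987), and Rfxap, a transcription factor subunit (0.984). Ooep was closest to Cetn2, a centrin (0.996), Mtmr14, a phosphoinositide phosphatase (0.993), and Gmps, an enzyme of GMP synthesis (0.989). Nearest to Tle6 were Pebp1, an inhibitor of RAF signalling, Gatd3a and Psmd6, a proteasome subunit, each at 0.995. Khdc3 was closest to Rpl27a, a ribosomal protein, Actg1, a cytoplasmic actin, and Rhd, a Rhesus family protein, with r between 0.987 and 0.990. Padi6 was nearest to Eif4enif1, which binds the cap-binding factor eIF4E and holds mRNAs untranslated (0.996), Alyref, an mRNA export factor (0.993), and Ndufs7, a subunit of respiratory complex I (0.991). Zbed3 had a looser match, to Brpf3, a chromatin reader (0.955), Mcmbp, a partner of the replicative helicase (0.949), and Slc22a6, an anion transporter (0.936).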

How the data were processed

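Per the labels' protocols, polysome-bound mRNA was column-purified, reverse-transcribed, linearly amplified with a whole-transcriptome kit made for degraded RNA and labelled with biotin. The authors deposited linear intensities, 1 value per probe set and array. Probe summarisation, background correction and scaling between arrays are not stated in the sources used here. There were 0 other value columns. Precision is limited by the number of arrays.

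Of 45101 probe sets, 64 controls were left out, and 34945 had 1 gene symbol, 932 several and 9160 none. The probe set with the highest mean log2 value stood for its gene. Values were taken as log2(intensity + 16) with no filter on low signal, and all 9 arrays entered 1 model of stage means (limma 3.58.1, lmFit and eBayes, R 4.3.3) with p-values adjusted over 18193 genes. Tests were two-sided. ± is the SD of 3 arrays on the intensity scale. A second fit took every probe set.

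The members and gene lists were chosen with earlier results of these data known. All members were named, with every probe set. For each member the 3 genes of highest Pearson r over the 9 arrays were named, without predicted genes. For each list other than the cell-type markers the genes that passed were named, up to 4 in each direction. Where none passed, the one with the smallest p was named. Uhrf1, Nlrp4f and Khdc1a were named as well, though they did not pass.

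Alternatives were pseudocounts of 1 and 64, leaving out the lowest 40% of genes, quantile normalization, equal medians, an equal 95th percentile, the mean of all probe sets, every probe set, trended and robust moderation, the replicate number as a block and leaving out each array.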

Additional observations from a re-analysis of the deposited data

How the results depend on the processing

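Alternatives for the 6 genes were counted over the 3 stage comparisons and the difference of the steps, without the F test. Of these recomputed values 442 kept their direction and their side of the threshold, 8 changed sign, 5 no longer passed and 1 newly passed. The F calls that Nlrp5 and Ooep lost, given above, are not in this count. Among the scaling, filter and model choices, the pseudocount alone moved a number of passing members by over 1.5 times. With pseudocount 1, 3 passed for MII against GV (5 with pseudocount 16) and 3 by the F test over the stages (5 with pseudocount 16), and with pseudocount 64, 1 passed the difference of the steps, Ooep at -1.33 (adjusted p = 0.042). The cause was not tested. Leaving out 1 array gave 4 to 5 members for MII against GV, 4 to 5 by the F test, 4 each time for MII against MI, and 0 each time for MI against GV and for the difference of the steps.

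Signs turned for changes near 0. For MI against GV, Ooep was at 0.18 after quantile normalization, and without 1 array at a time it ran from -0.054 to 0.020, Zbed3 from -0.12 to 0.19 and Khdc3 from -0.33 to 0.39. The difference of the steps for Nlrp5 ran from -0.40 to 0.054 in those fits. With the lowest 40% of genes left out, quantile normalization or an equal 95th percentile, 4 members passed the F test, without Nlrp5. With the replicate number as a block, 5 members passed for MII against GV and 4 for MII against MI, 4 passed the F test, Zbed3 had an adjusted p of 0.117 for MII against GV, and over all genes 2646 passed for MII against GV (2594 without the block) and 0 the difference of the steps (38 without it). Same-numbered arrays of different stages correlated in their deviations from the stage means by 0.00076 to 0.226 (9 pairs, mean 0.096), not all over 0.1. Arrays that differed in both stage and number correlated by -0.250 to 0.109 (18 pairs, mean -0.047). Deviations from a stage mean sum to 0 over its arrays, so this mean is tied to that of the same-numbered arrays. It is not a separate comparison. The design names 3 independent sample sets but does not tie the numbers to them, so the numbers were not taken as a pairing. The alternatives for the partner, maternal-effect and KH-domain lists were added after the data had been seen. With pseudocount 1, partners that fell numbered 1 and maternal-effect genes 2 that fell and 1 that rose. Khdc1b did not pass with the replicate number as a block (adjusted p = 0.0589). Values near the array medians, such as those of the Padi relatives, lie near background, where changes are understated.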
